A study of Sus scrofa with 16 samples.

Results

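The transforming growth factor beta (TGF-beta) system was followed through 10 genes: the ligands TGFB1, TGFB2 and TGFB3, the receptors TGFBR1, TGFBR2 and TGFBR3, the latent binding proteins LTBP1, LTBP2 and LTBP3, and the signal transducer SMAD3. They were chosen by name, and all 10 were found among the 29576 entries of the gene count table. The cells came from aortic valve leaflets of male and female pigs of 5 to 6 months and were valve interstitial cells, the resident fibroblasts that maintain the leaflet matrix. They were kept for 48 hours in medium with 1% fetal bovine serum, either on a soft PEG-norbornene hydrogel with an elastic modulus of about 5.8 kPa or on stiff tissue culture plastic. Each sex was studied on both surfaces, which made 4 groups of 4 libraries. The labels treat cells on gel as quiescent fibroblasts and cells on plastic as myofibroblasts, the contractile, matrix-producing state of the same cells. Surface, stiffness and material changed together, and the labels give neither the passage of the cells nor a sort that would remove other valve cells.

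TGF-beta ligands are secreted as dimers that stay bound to their own propeptide, a latent complex that latent TGF-beta binding proteins tether to the extracellular matrix. Once released, a ligand binds the type II receptor TGFBR2, which recruits and phosphorylates the type I receptor TGFBR1. TGFBR1 then phosphorylates SMAD2 and SMAD3, which enter the nucleus with SMAD4 and regulate transcription. In valve interstitial cells TGF-beta is a well-known inducer of the myofibroblast state, with smooth muscle actin and collagen among its targets. No sequence of these genes was used here.

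Total counts ran from 16.9 to 27.5 M per library, and all 10 genes passed the filter on low counts, so all were among the 14530 genes tested. The library with the lowest total, male gel 2, also had the fewest genes detected, 15476. Fibroblast genes were abundant: the 10 markers COL1A1, COL1A2, COL3A1, VIM, LUM, PDGFRA, DDR2, DCN, PDGFRB and THY1 summed to between 39732 and 55380 CPM (counts scaled to a common library size) in every library. The sum hides changes in both directions. By the test described below, 3 were called higher and 4 lower on plastic in male cells, and 1 and 4 in female cells. On the log2 scale PDGFRA was at -2.44 in male and -2.38 in female cells, LUM at -1.62 and -1.42, DCN at -1.33 and -1.41 and DDR2 at -0.55 and -0.47. COL3A1, called higher in both sexes, was at 0.48 and 0.53. The cardiac muscle markers TNNT2 and NPPA and the T cell marker CD3E had no count in any of the 16 libraries, and the pan-leukocyte marker PTPRC had none in 15. The 10 leukocyte markers summed to between 5.93 and 38.1 CPM, of which CD14 (3.16 to 11.3 CPM), LAPTM5 (0.565 to 33.7 CPM) and CD68 (0.0880 to 0.685 CPM) were present in every library. Between the surfaces LAPTM5 rose by 2.35 in male and 2.14 in female cells on the log2 scale and CD14 fell by 1.21 and 1.40. LAPTM5 overlapped between surfaces in female cells. CD68 was at 1.09 in male and -1.04 in female cells, neither called by the test described below. The 7 cardiac markers in the table summed to between 0.904 and 4.16 CPM. RYR2 among them rose by 2.56 and 2.42, from means of 0.169 to 1.06 CPM in male and of 0.270 to 1.45 CPM in female cells. TNNI3, the cardiac marker with the highest mean, was present in every library (0.849 to 2.05 CPM). Its change was 0.12 in male and -0.11 in female cells, not called by the test described below. The part of such cells in the results was not tested. Of 12 endothelial markers, ERG, PECAM1 and CDH5 were the highest, and the summed level ran from 156 CPM in male gel 1 to 580.3 CPM in female plastic 1. These are bulk libraries, in which fewer cells of a type and less RNA per cell cannot be told apart.

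The first question was how cells on plastic differed from cells on gel. Transcripts of 2 of the 3 ligands, TGFB2 and TGFB3, were several-fold higher on plastic in both sexes, whereas the call was not reached for TGFB1. The co-receptor TGFBR3 fell 3.15-fold in male and 2.77-fold in female cells, SMAD3 fell less, and LTBP2 rose 1.67-fold and 1.59-fold. A gene was called at a Benjamini-Hochberg adjusted p under 0.05 in edgeR's quasi-likelihood test, adjusted over all tested genes. In male cells 5 of the 10 were called, 3 higher and 2 lower, where 25.7% of all tested genes were called, 12.9% higher and 12.9% lower. In female cells 7 of 10 were called, 4 higher and 3 lower, against 23.9% of all genes, 12.7% higher and 11.3% lower. CPM did not overlap between the surfaces for 5 genes in male and 6 in female cells, where 28.9% and 27.7% of all genes did not overlap. The median log2 change of the 10 genes was 0.11 in male and 0.08 in female cells, near the medians over all tested genes of -0.03 and -0.04.

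**Figure D1:**
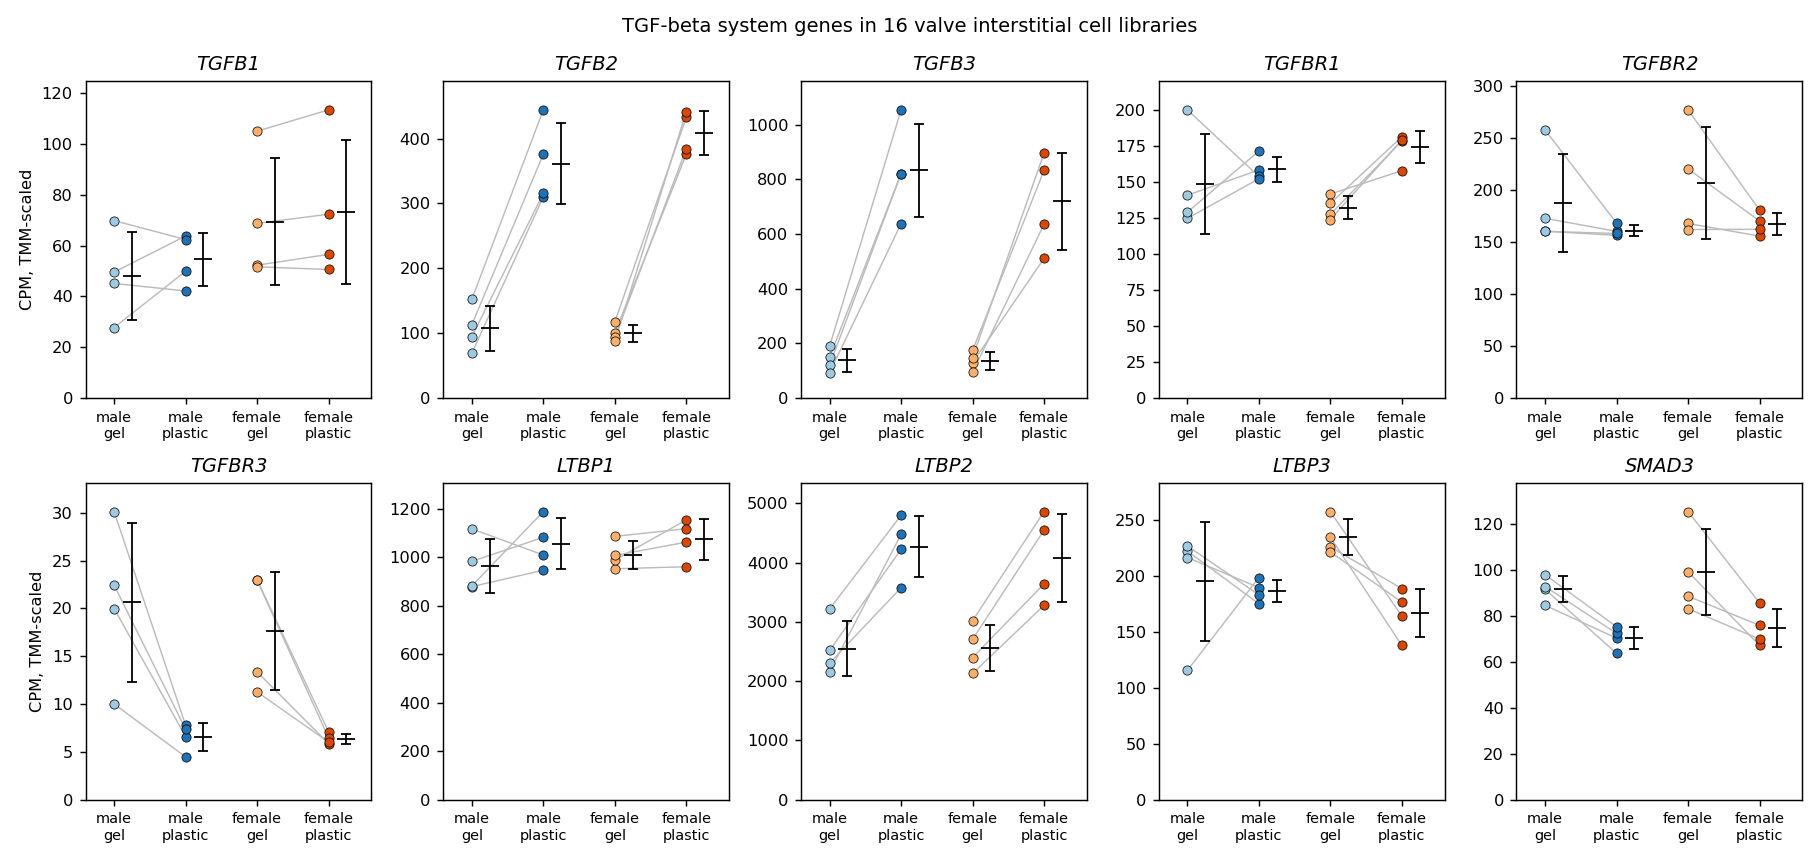
Level of each of the 10 genes in every library, in CPM scaled by TMM, edgeR's trimmed-mean scaling (linear axes from 0). Points are libraries, grey lines join the same replicate number on gel and plastic, and black marks give the mean ± SD of 4 libraries; TGFB2 and TGFB3 on plastic lie above every gel library.

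TGFB3 showed the largest change of the 10 genes. This isoform is a secreted homodimer like the others and is known for its part in palate development and wound repair. The gene lies on chromosome 7, 99133873 to 99162239 (Sscrofa11.1). In male cells on gel its levels were 149, 120.2, 189 and 93.0 CPM in replicates 1 to 4, and on plastic they were 821, 821, 1055 and 638 CPM. In female cells they were 129, 174, 148 and 94.4 CPM on gel and 511, 833, 897 and 636 CPM on plastic. The lowest plastic library, female plastic 1, was therefore above the highest gel library, male gel 3. The log2 change was 2.60 (SE 0.25, adjusted p = 1.67e-06) in male cells, a 6.05-fold rise, and 2.40 (SE 0.24, adjusted p = 3.43e-06) in female cells, a 5.27-fold rise. All 8 pairs of libraries with the same sex and number were higher on plastic, by 1.98 to 2.78 on the log2 scale.

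TGFB2 was the other ligand that rose. It differs from the other isoforms in needing TGFBR3 for efficient binding to the signalling receptors, and it has a known part in the formation of the valve cushions. The gene lies on chromosome 10, 8306136 to 8435307. Its levels in male cells were 69.2, 94.5, 113 and 152 CPM on gel and 310.3, 316, 376 and 444 CPM on plastic. In female cells they were 117, 100.005, 93.4 and 87.5 CPM on gel and 433, 376, 384 and 442 CPM on plastic. The groups did not overlap, and the replicates were closer together in female than in male cells (SD 33.3 against 62.7 CPM on plastic). TGFB2 rose by 1.75 in male cells (SE 0.19, adjusted p = 6.34e-06; 3.37-fold) and by 2.04 in female cells (SE 0.19, adjusted p = 1.65e-06; 4.10-fold).

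TGFB1, the isoform most often used to activate valve cells in culture, was not called in either sex. The gene lies on chromosome 6, 49332169 to 49348642. Male levels were 45.1, 27.7, 49.6 and 69.8 CPM on gel and 42.1, 49.9, 63.8 and 62.4 CPM on plastic. Female levels were 105, 52.3, 51.7 and 68.7 CPM on gel and 113, 56.5, 50.6 and 72.3 CPM on plastic. The surfaces overlapped in both sexes, and the spread lay between replicates: female 1 was the highest on each surface and male gel 2 the lowest of all. The log2 change was 0.18 in male cells (95% interval -0.44 to 0.80, adjusted p = 0.695) and 0.08 in female cells (-0.54 to 0.69, adjusted p = 0.879). These intervals come from a fit without pairs and include the spread between cultures. Same-numbered pairs differed by -0.10, 0.85, 0.36 and -0.16 in male and by 0.11, 0.11, -0.03 and 0.07 in female cells. The upper bounds of the TGFB1 intervals lie below the lower bounds of TGFB2 (1.35 in male and 1.63 in female cells) and of TGFB3 (2.08 and 1.88). Without male gel 2 the male value was -0.01 (adjusted p = 0.991).

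**Figure D2:**
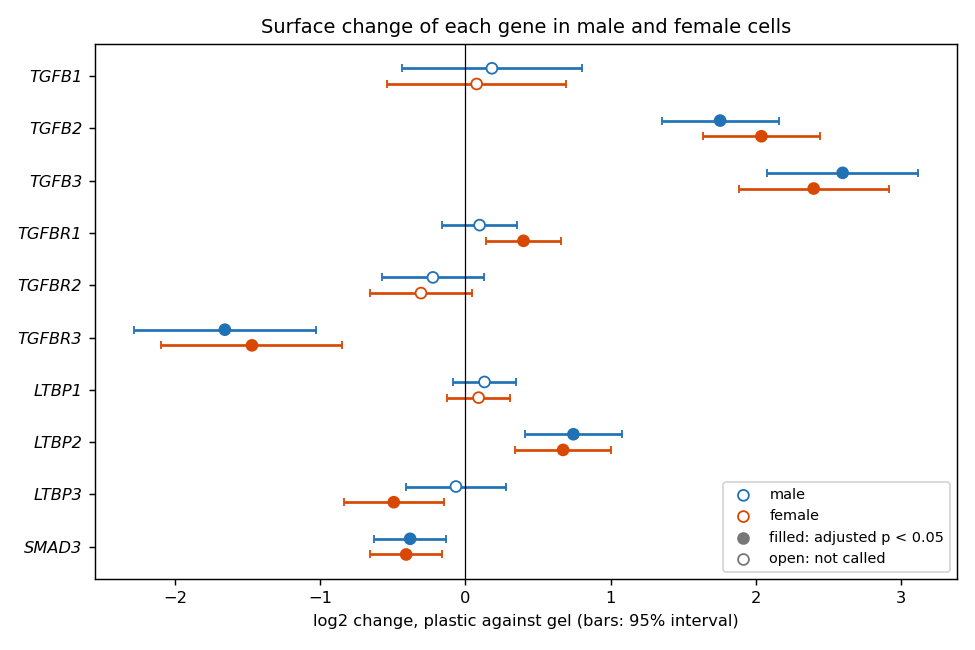
Log2 change on plastic against gel for each gene, male cells in blue and female cells in orange, with 95% intervals from edgeR. Filled points were called at an adjusted p under 0.05; TGFB2, TGFB3 and LTBP2 lie to the right and TGFBR3 and SMAD3 to the left in both sexes.

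The split of counts between the ligand genes shifted with these unequal changes. It depends on transcript length and does not rank the isoforms, but it can be compared between libraries, and it does not move with library scaling. TGFB1 took 16.2% ± 4.60 (SD, n = 4) of the ligand counts in male gel and 4.38% ± 0.776 in male plastic. In female cells its share was 22.7% ± 6.93 on gel and 6.32% ± 3.12 on plastic. TGFB3 took 47.4% ± 12.2 in male gel and 66.4% ± 7.11 in male plastic, and 44.6% ± 8.58 in female gel and 59.2% ± 9.01 in female plastic. The TGFB1 shares did not overlap between surfaces, the highest on plastic being 10.7% in female plastic 1 and the lowest on gel 11.4% in male gel 2. The TGFB3 shares did overlap between surfaces in both sexes: male gel 1 had 56.6% and male plastic 4 had 55.8%, and female gel 2 had 53.4% and female plastic 1 had 48.3%. The TGFB2 share overlapped too, with means between 29.2% and 36.4% in the 4 groups. The log2 ratio of TGFB3 to TGFB2 counts was 0.37 ± 0.79 in male gel and 1.20 ± 0.45 in male plastic, against 0.43 ± 0.36 and 0.78 ± 0.48 in female cells.

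**Figure D3:**
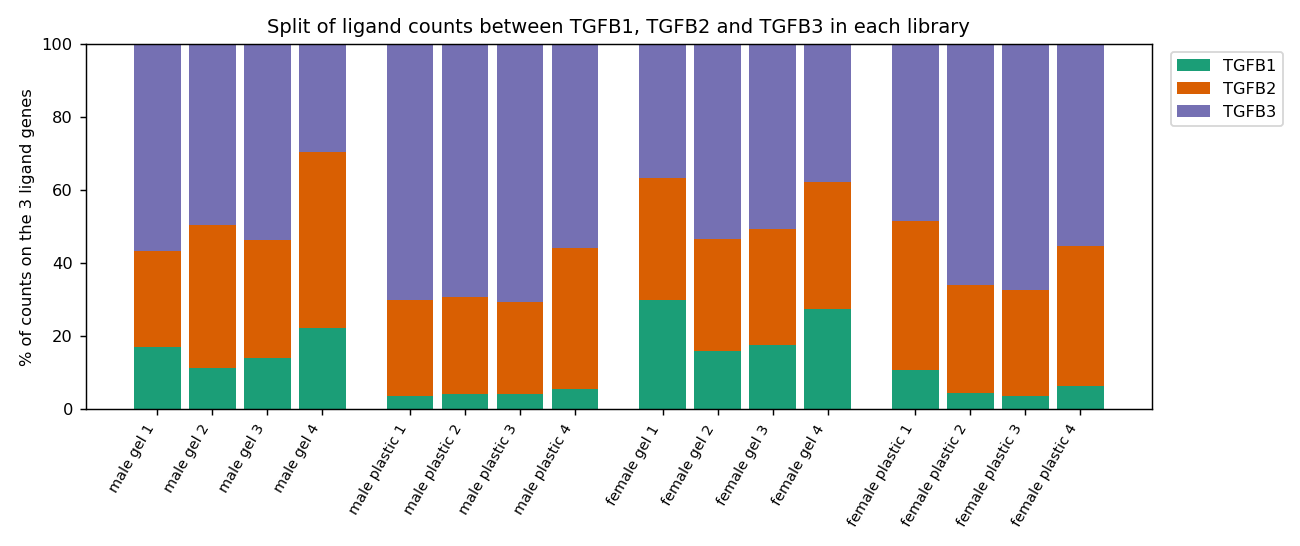
Percentage of the counts on the 3 ligand genes that fell on TGFB1, TGFB2 and TGFB3 in each of the 16 libraries. TGFB1 took between 3.59% and 10.7% on plastic and between 11.4% and 29.9% on gel.

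Among the receptors the clearest change was that of TGFBR3, or betaglycan, a proteoglycan co-receptor without kinase activity that presents ligand to TGFBR2. The gene lies on chromosome 4, 125109939 to 125310788. Its levels in male cells were 30.1, 19.99, 22.4 and 10.01 CPM on gel and 7.79, 6.61, 7.37 and 4.48 CPM on plastic. In female cells they were 13.4, 23.0, 23.0 and 11.3 CPM on gel and 5.86, 7.11, 6.47 and 6.03 CPM on plastic. Every plastic library was below every gel library. TGFBR3 fell by 1.66 in male cells (SE 0.30, adjusted p = 0.000577), to a level 3.15-fold lower, and by 1.47 in female cells (SE 0.29, adjusted p = 0.00155), 2.77-fold lower. It was thus lower on plastic in the same libraries in which TGFB2 was higher. The spread on gel was wide, with male gel 4, female gel 4 and female gel 1 the lowest of the 8 gel libraries.

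TGFBR1, the type I receptor kinase also called ALK5 (chromosome 1, 240842735 to 240918267), changed less. Female levels were 142, 135, 128 and 124 CPM on gel and 158, 181, 179 and 179 CPM on plastic, without overlap. The rise of 0.40 (SE 0.12, adjusted p = 0.0262) was lost without any 1 of female gel 3 or 4 or female plastic 2, 3 or 4, at adjusted p from 0.0559 to 0.0694. Male levels were 141, 200.1, 125 and 129 CPM on gel and 158, 154, 152 and 172 CPM on plastic. Only male gel 2 was above the plastic libraries there, and with it the change was 0.10 (95% interval -0.16 to 0.36, adjusted p = 0.608). Without male gel 2 TGFBR1 was called in male cells too, at 0.27 (adjusted p = 0.0206). The difference between the sexes was 0.30 (female minus male, 95% interval -0.07 to 0.67, adjusted p = 0.768).

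TGFBR2, the ligand-binding type II receptor kinase (chromosome 13, 16784370 to 16875828), was called in neither sex. Male levels were 173, 160.2, 160.1 and 257 CPM on gel and 160.1, 156, 158 and 168 CPM on plastic. Female levels were 220.1, 168, 162 and 277 CPM on gel and 170.0, 155, 162 and 181 CPM on plastic. On plastic all 8 libraries lay close together (SD 5.18 in male and 10.8 in female cells), whereas on gel male 4, female 4 and female 1 stood above the other 5 libraries. The log2 change was -0.22 in male (95% interval -0.58 to 0.13, adjusted p = 0.347) and -0.31 in female cells (-0.66 to 0.04, adjusted p = 0.201). Without those cultures on both surfaces it was -0.04 in male and -0.04 in female cells.

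Of the latent binding proteins, LTBP2 rose. It is a matrix protein of microfibrils that, unlike LTBP1, LTBP3 and LTBP4, does not bind the latent ligand covalently. The gene lies on chromosome 7, 97744974 to 97852848. Levels in male cells were 3216, 2161, 2517 and 2305 CPM on gel and 4796, 4473, 4222 and 3575 CPM on plastic. In female cells they were 2396, 3019, 2705 and 2129 CPM on gel and 3641, 4859.7, 4547 and 3279.8 CPM on plastic. The groups did not overlap, although female plastic 4 was close to the highest gel library, male gel 1. LTBP2 rose by 0.74 in male (SE 0.16, adjusted p = 0.00229) and 0.67 in female cells (SE 0.16, adjusted p = 0.00491). All 8 same-numbered pairs were higher on plastic, by 0.58 to 1.05.

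LTBP1, which binds the latent complex covalently and anchors it to fibrillin and fibronectin (chromosome 3, 106300748 to 106724538), had the smallest spread between cultures of the 10 genes. Its level was 966 ± 112 CPM (SD, n = 4) on gel and 1057 ± 104 on plastic in male cells, and 1009 ± 56.5 and 1074 ± 84.2 in female cells, and the surfaces overlapped in both sexes. The log2 change was 0.13 in male (95% interval -0.09 to 0.35, adjusted p = 0.377) and 0.09 in female cells (-0.13 to 0.31, adjusted p = 0.569). LTBP3, which also binds the latent complex (chromosome 2, 6701455 to 6720191), stood at 235, 226, 222 and 258 CPM in female gel and 138, 189, 177 and 164 CPM in female plastic. It fell by 0.49 there (SE 0.16, adjusted p = 0.0366), a call that was lost without any 1 of the 8 female libraries except female plastic 2, at adjusted p from 0.0550 to 0.119. In male cells LTBP3 was at 223, 116, 217 and 227 CPM on gel and 175, 199, 189.8 and 183 CPM on plastic. Male gel 2 alone was below the plastic libraries, and the change was -0.07 (95% interval -0.41 to 0.28) with that library and -0.25 (adjusted p = 0.0710) without it. The difference between the sexes in the LTBP3 change was -0.43 (95% interval -0.92 to 0.06, adjusted p = 0.768). In male gel 2, then, TGFB1 and LTBP3 were at their lowest and TGFBR1 at its highest of all 16 libraries, and this library also had the lowest total count. The part of depth in these values was not tested.

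SMAD3, the transducer that carries the signal of TGF-beta and activin receptors to DNA (chromosome 1, 164998457 to 165124455), was lower on plastic. Male levels were 91.6, 84.7, 92.8 and 98.0 CPM on gel and 63.7, 70.3, 72.4 and 75.3 CPM on plastic, without overlap. Female levels were 125, 99.3, 83.2 and 88.6 CPM on gel and 85.7, 67.2, 69.9 and 75.9 CPM on plastic, and female plastic 1 was above female gel 3. SMAD3 fell by 0.38 in male (SE 0.12, adjusted p = 0.0259) and by 0.41 in female cells (SE 0.12, adjusted p = 0.0186), and all 8 same-numbered pairs were lower on plastic. The calls were near the threshold. The male call was lost without male gel 4, male plastic 1 or male plastic 2 (adjusted p 0.0563 to 0.0818), and the female call without female gel 1, female plastic 2 or female plastic 3 (0.0541 to 0.0694) or in a fit of the 8 female libraries only (0.0533).

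The smaller changes depend on how libraries are scaled. The 10 most abundant genes took 13.3% to 14.8% of the counts on plastic and 9.80% to 11.8% on gel, and TMM scaling factors allow for such shifts. With library totals in place of TMM, the median of all genes moved from -0.03 to -0.27 in male and from -0.04 to -0.28 in female cells. On that scale TGFB1 and LTBP1 changed sign without a call in both sexes, as did TGFBR1 in male cells, and TGFBR1 was no longer called in female cells (0.15, adjusted p = 0.307). TGFBR2 was called lower in both (-0.47, adjusted p = 0.0476 in male and -0.56, adjusted p = 0.0239 in female cells). SMAD3 was at -0.62 and -0.65, LTBP3 at -0.31 and -0.74, and LTBP2 at 0.50 and 0.43 in male and female cells. TGFB2, TGFB3 and TGFBR3 kept their calls and directions. Of the 10 genes, 3 were then called higher and 3 lower in male cells, and 3 higher and 4 lower in female cells. Over all genes 1141 were called higher and 4808 lower in male cells on that scale, and 1070 higher and 4325 lower in female cells, where TMM gave 1870 and 1871 and 1841 and 1638.

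The second question was whether the sexes differed. By edgeR 0 of the 10 genes were called between female and male cells on gel, where 0.103% of all genes were called (0.00688% higher and 0.0964% lower in female cells), and 0 on plastic, where 0.124% were (0.0275% higher and 0.0964% lower). For 0 of the 10 did the sexes not overlap on either surface, against 2.03% of all genes on gel and 2.85% on plastic. By DESeq2 and by limma-voom the count of called genes was also 0 on each surface, and 0 of the 10 had an unadjusted p under 0.05. The largest difference was that of TGFB1, 0.53 higher in female cells on gel (95% interval -0.09 to 1.15, adjusted p = 0.852) and 0.42 on plastic (-0.19 to 1.04, adjusted p = 0.98). For TGFB3 the sex difference was -0.01 on gel (95% interval -0.51 to 0.48) and -0.21 on plastic (-0.70 to 0.28), and for TGFB2 it was -0.11 (-0.50 to 0.28) and 0.18 (-0.21 to 0.57). The surface change differed between the sexes for 0 of the 10 genes by edgeR, DESeq2 and limma-voom, and for 0% of all genes by edgeR. At an unadjusted p under 0.05 edgeR gave 0 of the 10 and 627 of all genes. The interval of that difference was -0.27 to 0.84 for TGFB2 and -0.89 to 0.50 for TGFB3. In order of group means, TGFB2, TGFB3, TGFBR1, LTBP1 and LTBP2 had both gel groups below both plastic groups. TGFBR2, TGFBR3, LTBP3 and SMAD3 had the reverse, and TGFB1 had neither order. The order includes LTBP1 and TGFBR2, which were called between surfaces in neither sex. The neighbouring groups on 1 surface did not differ beyond their spread.

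Several of the genes varied between cultures on both surfaces. The spread of the 8 same-numbered cultures, averaged over surfaces, was widest for TGFB1 (SD 0.47 on the log2 scale), TGFBR3 (0.40) and TGFB3 (0.33) and narrowest for LTBP1 (0.09) and TGFBR1 (0.10). Female 1 had the highest mean TGFB1, 1.55 above that of male 2, whereas male 4 had the lowest TGFB3 and TGFBR3 and the highest TGFB2. On plastic TGFB3 was lowest in female 1, female 4 and male 4 (511, 636 and 638 CPM), and it was 821 CPM or more in the other 5. LTBP2 on plastic was also lowest in those cultures, at 3641, 3279.8 and 3575 CPM, against 4222 CPM or more. Other genes went the opposite way on plastic in female 1, female 4 and male 4. TGFB2 was highest there, at 433, 442 and 444 CPM, against 384 CPM or less. TGFBR2 was at 170, 181 and 168 CPM, against 162 CPM or less, and SMAD3 at 85.7, 75.9 and 75.3 CPM, against 72.4 CPM or less. On gel, of TGFB3, LTBP2, TGFB2, TGFBR2 and SMAD3, only TGFBR2 set these cultures apart from all others. In the same order of cultures TGFB2 on gel was at 117, 87.5 and 152 CPM, against 69.2 to 113 CPM in the rest. SMAD3 on gel was at 125, 88.6 and 98.0 CPM, against 83.2 to 99.3 CPM.

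The same cultures had high endothelial markers. On plastic the sum of the 12 was 580.3 CPM for female 1, 444 for female 4 and 338 for male 4, and between 198 and 279.6 CPM in the other 5 libraries. On gel they summed to 249, 287 and 273 CPM in female 1, female 4 and male 4 and to between 156 and 206 CPM in the rest. In male cells the sum thus ran from 156 to 273 CPM on gel and from 198 to 338 CPM on plastic, and in female cells from 179 to 287 and from 212 to 580.3 CPM. Between the surfaces 1 of the 12 was called higher in male cells (ROBO4) and 2 in female cells (ROBO4 and ERG), near the 12.9% and 12.7% of all genes called higher, and none lower. Their median log2 change was 0.33 in male and 0.79 in female cells, above the medians over all tested genes of -0.03 and -0.04. Of the 3 highest markers, ERG was at 0.43 in male and 0.73 in female cells, CDH5 at 1.35 and 1.93, and PECAM1 at -0.55 and -0.16. CDH5 (VE-cadherin) was detected in every library, at 4.97 to 174 CPM, KDR and CLDN5 were at 0 in 1 library each and ROBO4 in 3. The part of endothelial cells in the levels of these genes was not tested. Without male 4, female 1 and female 4 on both surfaces, TGFB2, TGFB3, TGFBR3 and LTBP2 were still called in both sexes. SMAD3 was then called in male but not in female cells (adjusted p = 0.0689), and the female calls of TGFBR1 (0.47, adjusted p = 0.135) and LTBP3 (-0.28, adjusted p = 0.559) were lost with 2 female cultures remaining.

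**Figure D4:**
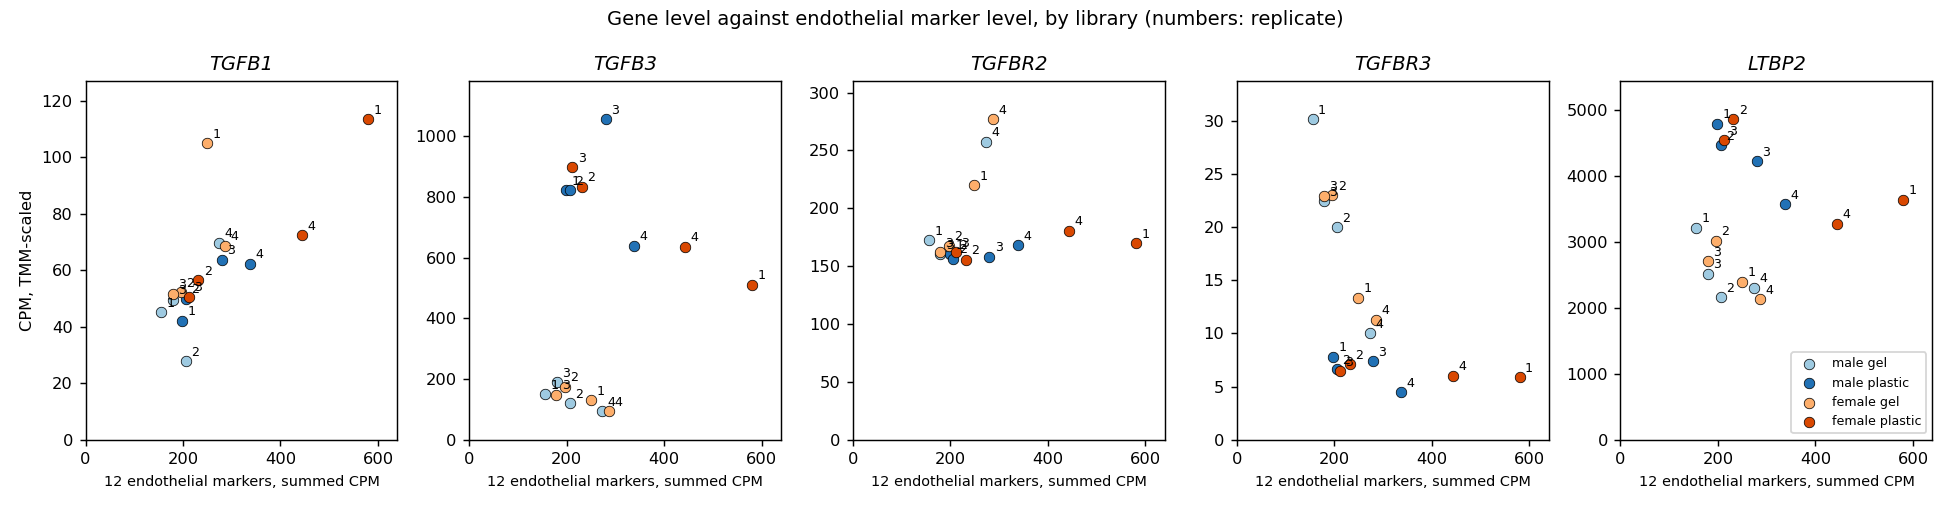
Level of 5 of the genes in CPM against the summed CPM of 12 endothelial markers, by library, with the replicate number beside each point (linear axes from 0). Replicates 1 and 4 of the female and 4 of the male cultures lie to the right on each surface. On plastic they have the lowest TGFB3, TGFBR3 and LTBP2 and the highest TGFBR2.

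The genes most like each ligand in profile were taken as the 3 with the smallest root mean square difference of log2 CPM over the 16 libraries, each gene centred on its mean. For TGFB3 they were DMPK, a muscle-expressed kinase (0.25), ACTA2, the smooth muscle actin that marks myofibroblasts (0.25), and PKIG, an inhibitor of protein kinase A (0.26), where the profile of TGFB3 itself had an SD of 1.298. DMPK rose by 2.78 in male and 2.49 in female cells, and ACTA2 by 2.32 and 2.18. For TGFB2 (SD 0.99) they were C1QL3 (0.26), the collagen-binding integrin subunit ITGA1 (0.27) and SUSD1 (0.28). For TGFB1 (SD 0.47) they were the ephrin receptor EPHA2 (0.20), the amino acid transporter subunit SLC7A7 (0.21) and PROCR, the endothelial protein C receptor (0.21), none called between surfaces. Among the 10 genes the nearest pair was TGFBR1 and LTBP1, at 0.23.

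Other genes of the latent complex, its storage and its activation moved in both directions. The counts of the 5 lists that follow stand beside 25.7% of all tested genes called in male cells (12.9% higher, 12.9% lower) and 23.9% in female cells (12.7% higher, 11.3% lower). With library totals in place of TMM, all genes shifted towards lower calls as given above, and each list had fewer higher calls in both sexes. Of 22 such genes 18 were tested, and 7 rose and 3 fell in male cells and 8 rose and 3 fell in female cells, with median log2 changes of 0.29 and 0.34. With library totals the split was 6 and 3 in male and 6 and 5 in female cells. The fibrillin FBN1, a protein of the microfibrils on which latent complexes are stored, rose by 0.81 in male and 0.92 in female cells. The integrin subunit ITGB1 rose by 1.24 and 1.53, and FMOD (fibromodulin, a collagen-binding proteoglycan that can bind TGF-beta) by 1.17 and 1.07. DCN (decorin, another TGF-beta-binding proteoglycan) fell by 1.33 and 1.41, and the proteases MMP2 and MMP14, able to release latent TGF-beta, fell by 0.86 and 0.43 in male and 0.85 and 0.43 in female cells. Picked after its values were seen, LRRC32 (GARP, a cell-surface anchor of latent TGF-beta) rose from 2.99 to 10.02 CPM in male and from 3.38 to 10.7 CPM in female cells. ITGB6 and PLG had no count.

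Of 15 co-receptors and receptor regulators, all tested, 5 rose and 1 fell in male cells and 6 rose and 2 fell in female cells (medians 0.15 and -0.02), where 25.7% and 23.9% of all genes were called. With library totals 2 rose and 4 fell in male and 3 rose and 4 fell in female cells, and the male median was -0.09. CAV1 (caveolin-1, which takes part in receptor internalisation) rose by 0.59 in male and 0.90 in female cells. CD109, a co-receptor that dampens signalling, rose by 0.68 and 0.58, FKBP1A, which binds the type I receptor and holds it inactive, by 0.49 and 0.44, and the co-receptor NRP2 by 1.35 and 1.34. DAB2, an adaptor between receptor and SMADs, was at 0.32 in male cells (adjusted p = 0.113) and rose by 0.60 in female cells. ZFYVE9 (SARA, the anchor that presents SMAD2 and SMAD3 to the receptor) fell by 0.50 in male and 0.54 in female cells, and VASN, a ligand trap, was at -0.39 in male cells (adjusted p = 0.152) and fell by 0.75 in female cells.

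Of 19 SMAD transducers, co-repressors and brakes 18 were tested, with 4 higher and 2 lower in male and 5 higher and 3 lower in female cells (medians 0.03 and 0.19), where 25.7% and 23.9% of all genes were called, so that the male count is near the background. With library totals the split was 3 higher and 8 lower in male and 4 higher and 6 lower in female cells, with medians of -0.21 and -0.06. SMAD2 was at 0.02 in male (adjusted p = 0.899) and 0.23 in female cells (adjusted p = 0.12), and SMAD4 at -0.06 and 0.09, none called. The ubiquitin ligase SMURF2, which marks receptors and SMADs for degradation, rose by 0.66 and 0.82, and PMEPA1, a TGF-beta-induced inhibitor that binds SMAD2 and SMAD3, by 1.22 and 1.14. The ubiquitin ligase WWP1 rose by 0.73 and 0.94, whereas the related NEDD4L fell by 1.48 and 1.15. The co-repressor TGIF2 fell by 0.49 and 0.89, and the inhibitory SMAD6 fell by 0.91 in female cells and was at -0.30 in male cells (adjusted p = 0.269).

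Of 25 TGF-beta response genes, all tested, 13 rose and 4 fell in male cells and 12 rose and 3 fell in female cells, with medians of 0.48 and 0.37, where 12.9% of all genes rose and 12.9% fell in male cells and 12.7% and 11.3% in female cells. With library totals 11 rose and 6 fell in male and 10 rose and 6 fell in female cells. ACTA2 rose by 2.32 in male and 2.18 in female cells, ELN (elastin) by 3.12 and 2.81 and NOX4, an oxidase of myofibroblasts, by 0.94 and 1.05. The transcription factor SNAI1 fell by 1.00 and 1.19, the matricellular protein POSTN by 2.36 and 2.27 and COMP, a cartilage matrix protein, by 1.23 and 1.29, although POSTN overlapped between surfaces in female cells and SNAI1 and COMP in male cells. COMP was low, with means of 2.96 CPM on gel and 1.27 CPM on plastic in male cells and 3.03 and 1.24 CPM in female cells. The list holds general myofibroblast genes as well as direct targets, and several respond to other signals. Its COL1A1, COL1A2 and COL3A1 are also among the fibroblast markers, as is DCN of the latency list.

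Activin ligands and receptors, which also signal through SMAD2 and SMAD3, had 12 tested of 17, with 3 higher and 2 lower in male and 3 higher and 1 lower in female cells (medians -0.12 and -0.27), where 25.7% and 23.9% of all genes were called. With the replicate number as a block the male split was 3 higher and 4 lower and the female split 3 and 2. With library totals 2 rose and 4 fell in male and 2 rose and 3 fell in female cells. INHBA, the activin A subunit, rose by 1.61 in male and 1.74 in female cells, and FSTL3, a secreted activin antagonist, by 1.91 and 1.42. INHBB rose by 0.98 in male cells and was at 0.43 in female cells (adjusted p = 0.385). The receptors ACVR1C and ACVR2A fell by 1.73 and 0.46 in male cells and were at -0.44 and -0.29 in female cells (adjusted p = 0.54 and 0.135). ACVR1C was low in male cells, with means of 2.70 CPM on gel and 0.802 CPM on plastic, and the surfaces overlapped there. FSTL1 and GDF11 were at 0.17 and -0.17 in male cells, not called, and in female cells FSTL1 rose by 0.46 and GDF11 fell by 0.73. For the difference of surface changes between the sexes 0 genes of the 5 lists were called by edgeR, DESeq2 and limma-voom, so none of these is shown to respond in 1 sex only. Between the sexes on gel or on plastic the count was 0 as well. At an unadjusted p under 0.05 edgeR gave 1 SMAD list gene for the difference, 2 activin branch genes on gel, and on plastic 1 latency, 2 SMAD list and 2 response genes.

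**Figure D5:**
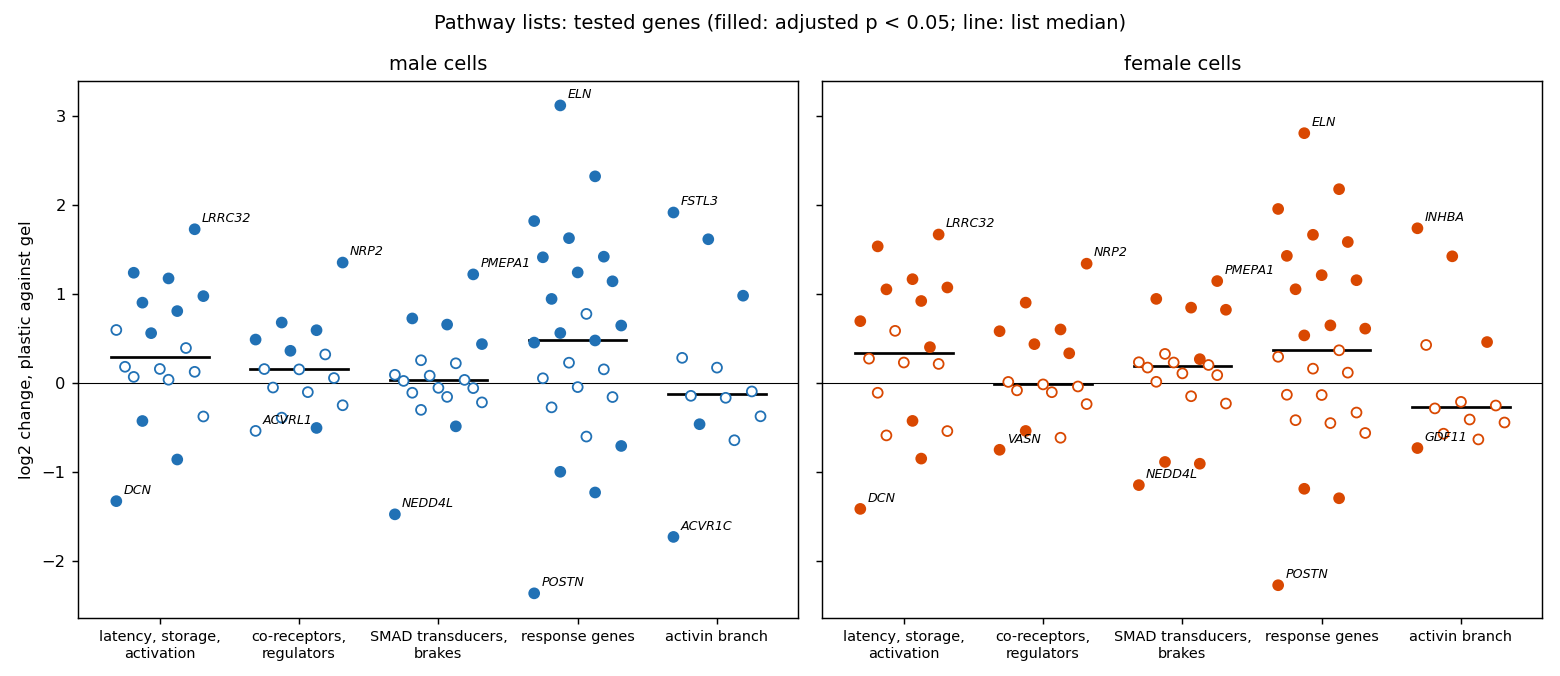
Log2 change on plastic against gel of the tested genes of 5 pathway lists, male cells left and female cells right; each point is a gene, filled where called, and the line is the list median. ELN and POSTN mark the ends of the response genes in both sexes.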

How the data were processed

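Raw counts per gene of 16 polyA RNA libraries were deposited by the authors in a single table. Per the labels' protocols, the kits were Qiagen RNeasy Micro for RNA and mRNA KAPA Hyperprep for libraries. Per the submitters' processing notes, reads were handled with FastQC 0.11.5, Trimmomatic 0.36, HISAT2 2.1.0, SAMtools 1.3.1 and featureCounts on Sscrofa11.1. The annotation and strand setting are not given in the sources used here, so reads of overlapping genes cannot be told apart. Of 29576 entries, 24 with numbers in place of names (0.169% of counts) were left out. Gene positions came from RefSeq for the same build (10 of 10 symbols matched). No transcript lengths were used, so levels of the 10 genes were not compared with each other, and the ligand split is of raw counts. Sums and ranks of marker genes are of CPM and depend on transcript length.

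Counts were filtered with filterByExpr by group, scaled by TMM (0.896 to 1.12) and fitted with edgeR 4.0.16 in R 4.3.3, with 4 group means over 16 libraries. SE is the change over the square root of F. Alternatives used limma 3.58.1 (voom), DESeq2 1.42.0, other scalings and filters, a replicate block, and fewer libraries. The test was checked on simulated data.

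The genes and lists were chosen with earlier results of these data known. Named list genes were, per sex and direction, up to 3 called by smallest adjusted p. A response gene that this rule also names is not reported here. For each marker list the rule was up to 3 genes with the highest mean CPM. Outside it, ROBO4, KDR, CLDN5, TNNT2, NPPA, CD3E, PTPRC and the fibroblast markers other than COL1A1, COL1A2 and COL3A1 were named after their values were seen. The surface changes of marker genes were also picked for report after their values were seen. The labels do not say that replicates are separate animals or that numbers match across surfaces. Same-numbered libraries of a sex deviated together across genes (r = 0.13 to 0.49 in the 8 pairs), and each of 16 libraries was best matched by its own number, so numbers were taken to pair libraries. Without separate animals, p-values measure the spread between these samples. No library was a copy of another: the chi-square per degree of freedom was 9.93 to 81.9 over 24 pairs within groups. Plots used matplotlib 3.10.9 under Python 3.11.15.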

Additional observations from a re-analysis of the deposited data

Results flagged for a closer look

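In each group of 4 libraries, the distance of the highest or lowest library to its neighbour was set against the range of the group for the 10 genes (40 groups of values), and 3 passed Dixon's 95% critical value, which chance passes in about 1 of 20. Male gel 2 had 116 CPM of LTBP3, where the other male gel libraries had 217 to 227 CPM. Male gel 4 had 257 CPM of TGFBR2, where the others had 160.1 to 173 CPM. Female plastic 1 had 158 CPM of TGFBR1, where the others had 179 to 181 CPM. For none of the 10 genes did the test of the difference of surface changes between the sexes pass its threshold.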

How the results depend on the processing

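The surface calls of TGFB2, TGFB3, TGFBR3 and LTBP2 held in both sexes in all alternatives run. With RLE size factors, DESeq2, limma-voom, no filter on low counts, a floor of 1 CPM in 4 libraries and the replicate as a block, none of the calls on the 10 genes changed. The replicate block gave 5 called genes in male and 7 in female cells, and 4286 and 3993 over all genes. For the latency, co-receptor, SMAD, response and activin lists it gave 11, 7, 5, 19 and 7 called genes in male cells, in place of 10, 6, 6, 17 and 5, and 12, 9, 8, 16 and 5 in female cells, in place of 11, 8, 8, 15 and 4. Leaving out 1 library at a time gave 4 to 6 of the 10 in male and 4 to 7 in female cells; the 4 came without female plastic 3. Leaving out male gel 2 and female plastic 4 together gave 6 and 7. Leaving out male 4, female 1 and female 4 gave 5 in male and 4 in female cells, and 1948 in place of 3479 over all genes in female cells, with fewer libraries. It also gave 4 of the co-receptors and regulators, 5 of the SMAD transducers and brakes and 2 of the activin branch in female cells, in place of 8, 8 and 4. With library totals the SMAD list had 11 in male cells in place of 6. Library totals without TMM, chosen after the data were seen, gave 6 and 7 of the 10 genes. Over all genes they gave 5949 (1141 higher, 4808 lower, in place of 1870 and 1871) in male and 5395 (1070 higher, 4325 lower, in place of 1841 and 1638) in female cells, and group mean levels moved by up to 10.03%. List counts under all alternatives were also added after the data were seen. Per-length shares of the ligands were not run.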
